A study of Mus musculus with 2 samples.

Results

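C1q-positive macrophages of the mouse cecum were studied as 287 of 19571 CD45+ cells that could be assigned to a mouse. A cell was a member if its barcode held at least 1 unique molecular identifier (UMI, 1 counted RNA molecule) of Csf1r and at least 5 of C1qa, C1qb and C1qc together. The barcode had to hold at least 500 UMIs, at most 10% of them mitochondrial, and a top mouse tag of at least 10 counts and 3 times the next. It also had to hold none of Xcr1 and Clec9a (type 1 dendritic cells), Cd79a (B cells) or Cd3e, Cd3d and Cd3g (T cells). Of the assigned cells, 1500 had a Csf1r UMI, 488 of these reached 5 C1q UMIs, and the 3 exclusions left 475, 423 and then 287. The members were thus chosen by UMI counts of these 10 genes, whose levels are described and were not tested.

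The study asked how activating Trpv1+ nociceptors, which are sensory neurons for pain marked by the capsaicin receptor Trpv1, acts on immune cells of the gut. It compared 2 Trpv1-ADC mice with 2 littermate CTRL mice, all male and 101 days old. Per the labels, all 4 had received AAV intraperitoneally as newborns and 7 injections of CNO, a ligand of designer receptors, given on alternate days. The labels name Trpv1-WT.B6 together with Trpv1-Cre.B6 as strains and do not say which mouse had which, so strain and group cannot be told apart. In Trpv1-Cre mice the Cre recombinase follows the Trpv1 promoter, and the labels do not give what the AAV carried. CD45+ cells were sorted from the cecum after dispase and collagenase digestion, and each mouse was marked by its own DNA-coded anti-CD45 antibody before a single droplet run. The labels say 5′ chemistry in one place and 3′ in another.

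The 4 tag oligonucleotides are shown because they alone tie a macrophage to its mouse and group. They are written 5′ to 3′ in capitals throughout, as the labels give them.
CTRL 1: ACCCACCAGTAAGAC
CTRL 2: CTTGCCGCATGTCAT
Trpv1-ADC 1: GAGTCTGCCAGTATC
Trpv1-ADC 2: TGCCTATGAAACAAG
The median macrophage held 1188.5 counts of its own tag in CTRL 1, 646 in CTRL 2, 226.5 in Trpv1-ADC 1 and 418 in Trpv1-ADC 2. The next highest tag had medians of 16 to 19.5 counts, so the margin was smallest in Trpv1-ADC 1.

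Gut macrophages are renewed largely from Ly6c2+ blood monocytes, which enter through the chemokine receptor Ccr2 and mature in the mucosa, while a smaller long-lived set sits near vessels and nerves. Mature cells take up dying cells and microbes, present antigen on MHC class II and secrete interleukin 10. C1q, the first component of the classical complement pathway, is made by such macrophages, and Csf1r is the receptor for their growth factor. NF-kB is a family of transcription factors held in the cytoplasm by inhibitors of the IkB family, and its targets include those inhibitors, cytokines and chemokines. Macrophages also carry receptors for neuropeptides and neurotransmitters, several of which signal through cyclic AMP (cAMP) and the factor CREB.

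The label was checked against genes the rule did not use. Mertk, a receptor for dying cells, lay between 40.1 and 64.5 CPM (UMI counts scaled to a common total) over the 4 mice, against 3.003 to 21.3 in monocytes and 0 to 1.29 in type 2 dendritic cells gated from the same run. Adgre1, which encodes F4/80, lay between 341 and 478 CPM, against 97.6 to 146 and 12.8 to 43.8. Apoe, a lipid carrier, lay between 4028 and 4838 CPM, against 1143 to 1787 and 95.3 to 104. Macrophages thus stood above both other populations in every mouse for these 3 genes, and Fcgr1, an Fc receptor, was at 84.5 to 134 CPM against 53.0 to 112 in monocytes, where the ranges overlapped. The class II genes H2-Ab1 (4747 to 6049 CPM) and Cd74 (12410 to 14763 CPM) overlapped in range with type 2 dendritic cells (5196 to 6008 and 12417 to 13984 CPM), whose gate used H2-Ab1. Both compared gates allowed at most 1 C1q UMI, so these contrasts are with cells low in C1q. Summed over 8 monocyte markers, macrophages had 1217 to 1979 CPM against 5060 in monocytes, whose gate used Ly6c2, Vcan, Plac8 and F10 of them. The monocyte marker Ccr2 had a UMI in 76.0% of macrophages and in 83.7% of monocytes. Timd4, a receptor of long-lived macrophages, was at 1.86 to 5.61 CPM.

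C1qa, which the rule used, was at 1673 and 1625 CPM in CTRL mice and at 1794 and 1807 CPM in Trpv1-ADC mice, and C1qb at 1311 and 1414 against 1991 and 1891 CPM. C1qc was at 1161 and 1062 against 1257 and 1219 CPM, and Csf1r at 549 and 521 against 466 and 443 CPM. The median cell held 20 and 26.5 C1q UMIs in CTRL mice and 33 and 44 in Trpv1-ADC mice. The 16 members just inside the cut, with 5 or 6 C1q UMIs, had 46.3 CPM of Fcgr1, 0 of Mertk and 1308 of Apoe. The 28 cells just outside it, with 3 or 4, had 47.4, 4.31 and 1103 CPM, and the 271 members further inside had 103, 57.7 and 4567 CPM.

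CTRL 1 gave 98 macrophages with 781316 UMIs, CTRL 2 58 with 499223, Trpv1-ADC 1 84 with 712788 and Trpv1-ADC 2 47 with 537229. Median depth was 7466, 8768.5, 7757 and 10722 UMIs per cell in that order, so Trpv1-ADC 2 had the fewest and deepest cells. All mice came from 1 run, and the 2 deposited matrices shared their 23063 barcodes. RNA from other cells was present: Igha had a UMI in 78.0% of macrophages and in 71.7% of T cells. Summed over 7 epithelial markers, Trpv1-ADC 2 had 642 CPM against 18.2 to 58.1 in the other mice. Of these markers Muc2 was at 225 CPM in Trpv1-ADC 2 and at 0 in the other mice, with a UMI in 0.348% of all macrophages. Over 6 fibroblast markers CTRL 1 had 387 CPM against 37.2 to 53.3. Leaving out the 23 cells with at least 3 UMIs of fibroblast, epithelial, glial or muscle markers gave 5 genes higher and 7 lower. Those cells numbered 10 in CTRL 1, 5 in CTRL 2, 6 in Trpv1-ADC 1 and 2 in Trpv1-ADC 2.

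Macrophages were 1.91% of assigned cells in CTRL 1 (exact Clopper-Pearson 95% interval 1.56 to 2.33) and 1.25% in CTRL 2 (0.948 to 1.61). They were 1.77% in Trpv1-ADC 1 (1.41 to 2.18) and 0.932% in Trpv1-ADC 2 (0.686 to 1.24). The groups overlapped, with means of 1.58% ± 0.472 (SD, n = 2) and 1.35% ± 0.589 (SD, n = 2). The difference of -0.232 points gave p = 0.667 in an exact two-sided permutation test, which with 4 mice cannot go below 0.333. Without CTRL 1 the difference was 0.102 points and without Trpv1-ADC 2 it was 0.185, so either mouse alone set its sign. Monocytes were 1.99% and 1.81% of CTRL cells and 1.09% and 1.25% of Trpv1-ADC cells, and these groups did not overlap (exact permutation p = 0.333, the smallest possible). Type 2 dendritic cells were 1.35% and 1.27% against 0.841% and 1.01% (exact permutation p = 0.333). As a share of cells with a Csf1r UMI, macrophages were 18.1% and 16.2% in CTRL and 28.9% and 15.2% in Trpv1-ADC mice, again overlapping. Intervals cover counting error only.

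**Figure D1:**
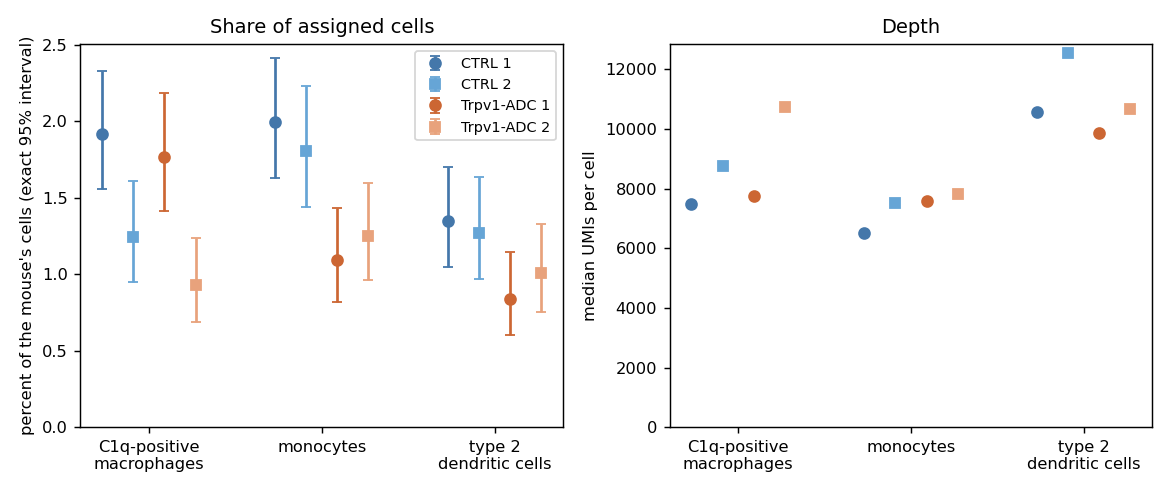
Left, percent of each mouse's assigned cells in the macrophage, monocyte and type 2 dendritic cell gates, with exact 95% binomial intervals; right, median UMIs per cell. Macrophage shares of the groups overlap (1.91% and 1.25% against 1.77% and 0.932%), and Trpv1-ADC 2 has the deepest macrophages at 10722 UMIs.

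Subset genes were compared after every cell had been thinned to 2000 UMIs, which left out 11 of the 287 cells (4 of CTRL 1, 6 of CTRL 2, 1 of Trpv1-ADC 1 and 0 of Trpv1-ADC 2). Ccr2, the receptor of newly arrived monocytes, was detected in 57.2% of the remaining 276 cells and Il1b, an inflammatory cytokine, in 54.7%. Cx3cr1, the fractalkine receptor of mature gut macrophages, was detected in 33.0%, and Fn1, fibronectin, in 23.6%. Retnla, a secreted protein of alternatively activated macrophages, was detected in 13.4%, against 1.5% of T cells. T cell shares are those of 3000 T cells thinned alike to 2000 UMIs. Before thinning, median depth was 5965 UMIs in T cells and 8276 in macrophages. Folr2 (10.1%), Cd163 (9.42%) and Lyve1 (3.99%), genes of long-lived macrophages, exceeded their T cell shares of 0.267%, 0.1% and 0.400%. No thinned cell held a Timd4 UMI (0 of 276, which allows up to 1.09% of cells with a UMI at this depth), and without thinning 6 of 287 cells did (2.09%). Cd4 was detected in 3.62% of macrophages, below the 15.6% of T cells, and Mki67, a gene of dividing cells, in 2.17% against 1.5%.

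Il10, which encodes interleukin 10, was detected in 16.0% and 17.3% of macrophages from CTRL mice and in 9.64% and 8.51% from Trpv1-ADC mice. The T cell share was 6.57%, but T cells can transcribe Il10 themselves, so its share from free RNA is not known. The groups did not overlap, the difference was -7.56 points and the exact permutation p was 0.333, the smallest possible. Without thinning the shares were 29.6% and 32.8% against 19.0% and 17.0%. Cx3cr1 was detected in 33.0% and 25.0% against 37.3% and 34.0%, and Ccr2 in 54.3% and 57.7% against 59.0% and 59.6%, each without overlap (exact permutation p = 0.333 for both). At 1000 UMIs the Cx3cr1 groups overlapped, at 22.7% and 20.7% against 19.0% and 21.3%, and so did those of Ccr2, at 36.1% and 36.2% against 44.0% and 36.2%. The Retnla share was alike in all mice, at 12.8% and 13.5% against 14.5% and 12.8%. Lyve1 was detected in 4.26% and 0% against 4.82% and 6.38% (exact permutation p = 0.333), from 4 cells or fewer per mouse. Cd163, Folr2, Fn1, Il1b, Cd4 and Mki67 overlapped between the groups.

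Subset genes were not spread evenly over the cells. Fn1 was detected in 81.1% of the 37 Retnla-positive cells and in 14.6% of the others, and Ccr2 in 81.1% and 53.6%. Conversely, Cx3cr1 was detected in 10.8% of Retnla-positive cells and 36.4% of the others, and Il1b in 18.9% and 60.3%. Il1b was also detected in 7.69% of the 26 Cd163-positive cells against 59.6% of the rest. These shares pool the cells of 4 mice and describe ranges of cells, not cell types.

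**Figure D2:**
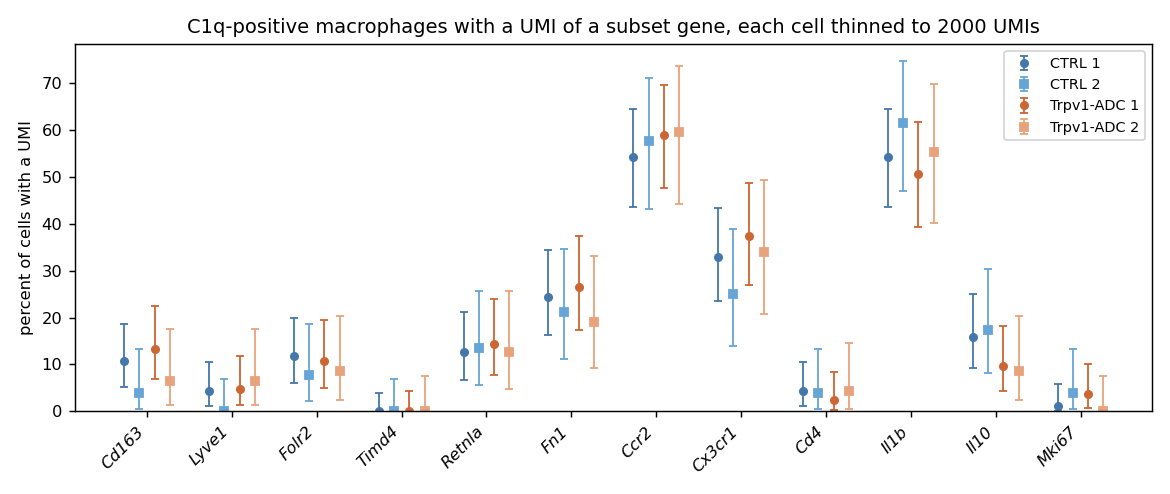
Percent of macrophages per mouse with at least 1 UMI of 12 subset genes after thinning to 2000 UMIs, with exact 95% binomial intervals. Il10 lies at 16.0% and 17.3% in CTRL mice and at 9.64% and 8.51% in Trpv1-ADC mice, while Retnla lies between 12.8% and 14.5% in all 4.

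For gene levels, UMIs were summed over the macrophages of each mouse and 7045 genes were tested with edgeR's quasi-likelihood test (Benjamini-Hochberg adjusted p, threshold 0.05). One gene passed, which is 0.0142% of those tested. It was S100a9, which encodes a calcium-binding protein abundant in neutrophils and monocytes. It was at 2.56 and 0 CPM in CTRL mice and at 163 and 106 CPM in Trpv1-ADC mice, a log2 fold change of 6.24 ± 0.58 (SE, edgeR adjusted p = 0.00368, higher in 2 of 2 mice). These values rest on 2, 0, 116 and 57 UMIs. They came from 2 of 98, 0 of 58, 6 of 84 and 2 of 47 cells, and a single cell held 48.3% of the UMIs in Trpv1-ADC 1 and 98.2% in Trpv1-ADC 2. Its partner S100a8 was at 2.56 and 2.00 against 96.8 and 27.9 CPM (edgeR adjusted p = 0.0969, and 0.256 without Trpv1-ADC 1). Summed over 8 neutrophil markers, macrophages had 74.2 and 90.1 CPM in CTRL and 389 and 315 CPM in Trpv1-ADC mice, while the defining marker Ly6g was at 0 in all 4. That sum includes S100a8 and S100a9. Of its other members, Csf3r was at 56.3 and 58.1 against 81.4 and 61.4 CPM, Hdc at 6.40 and 22.0 against 36.5 and 102 CPM, and Mmp8 at 6.40 and 6.01 against 2.81 and 1.86 CPM. The part of such cells in the S100a9 result was not tested. Without the 4 cells that held at least 3 UMIs of S100a8 and S100a9, 3 from Trpv1-ADC 1 and 1 from Trpv1-ADC 2, S100a9 was no longer among the genes tested, and 8 other genes were called higher and 45 lower. S100a9 was also not among the genes tested with non-immune markers left out or with cells thinned to 2000 UMIs. Nor was it with other lineages left out, with or without plasma cell genes counted. Both of these last choices removed every cell with an S100a8 or S100a9 UMI, so S100a9 could not be tested there.

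The number of calls depended on the fit. DESeq2 called 9 genes higher and 15 lower on the same sums. Leaving out CTRL 1 gave 179 calls, leaving out CTRL 2 117, leaving out Trpv1-ADC 1 198 and leaving out Trpv1-ADC 2 83. At an unadjusted p under 0.05, edgeR gave 299 genes higher (4.24%) and 503 lower (7.14%). Because so few genes passed, groups of genes are described by how many lay apart, meaning that both Trpv1-ADC mice were above both CTRL mice, or below. Of all genes tested, 23.9% lay apart with Trpv1-ADC higher and 19.0% with Trpv1-ADC lower, and the median log2 fold change was 0.01. No member of the gene lists described next passed edgeR's adjusted threshold, so their values are given without a call.

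The NF-kB list of 24 genes held subunits and feedback inhibitors, and also other genes such as Pim1, Sod2, Icam1 and Traf1. Of these 24 genes, 16 (66.7%) lay apart with Trpv1-ADC lower, against 19.0% of all genes, and 1 (4.17%) with Trpv1-ADC higher. Their median log2 fold change was -0.81, and 16 had an unadjusted edgeR p under 0.05 with Trpv1-ADC lower. Rel, the c-Rel subunit, was at 745 and 843 CPM in CTRL mice and at 370 and 341 CPM in Trpv1-ADC mice. That is a log2 fold change of -1.20 ± 0.21 (SE, edgeR adjusted p = 0.0890), and both Trpv1-ADC mice were at less than the lower CTRL value. Nfkb1, which encodes the p105 precursor of p50, was at 719 and 853 against 279 and 387 CPM (-1.29 ± 0.24, edgeR adjusted p = 0.0961). Pim1, a kinase gene induced by cytokines, was at 1028 and 966 against 519 and 344 CPM (-1.25 ± 0.24, edgeR adjusted p = 0.0969). DESeq2 called Rel, Nfkb1 and Pim1, each at an adjusted p of 0.00822. Tnfaip3, which encodes the inhibitor A20, was at 321 and 381 against 182 and 156 CPM (edgeR adjusted p = 0.108). For these 4 genes the groups did not overlap. Rela, the p65 subunit, was at 92.1 and 84.1 against 87.0 and 59.6 CPM and Nfkb2 at 57.6 and 80.1 against 56.1 and 74.5 CPM, where the groups overlapped. Both were named after their values had been seen. Ikbke was the single member with both Trpv1-ADC mice higher. Over 11 choices of cells, 13 to 17 members lay apart with Trpv1-ADC lower, while all genes stayed at 17.1% to 19.8%.

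**Figure D3:**
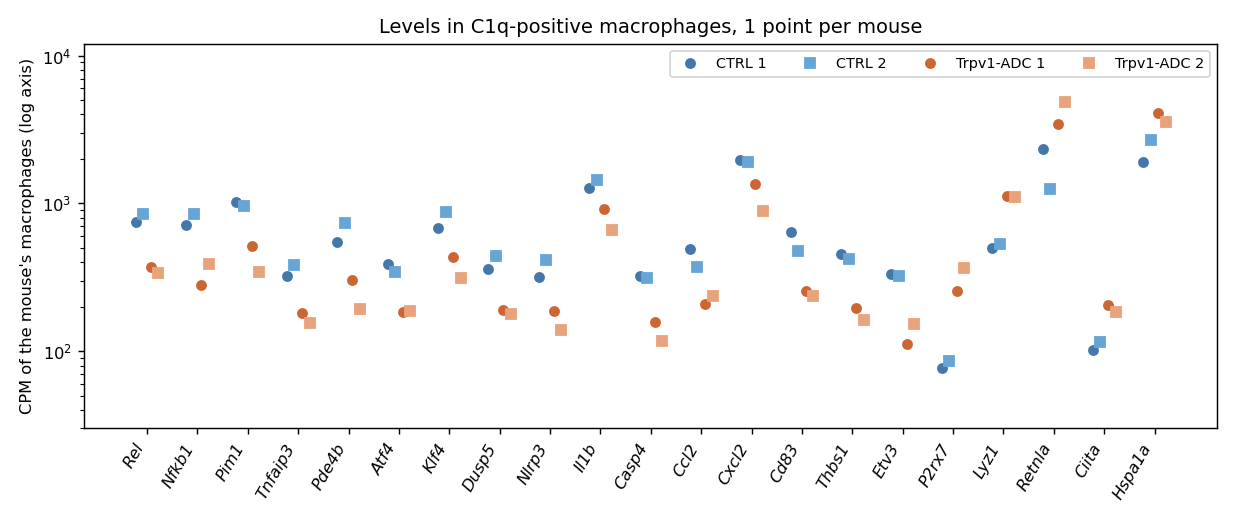
Level of 21 genes in the macrophages of each mouse, as CPM on a log axis, 1 point per mouse. From Rel to Etv3 both Trpv1-ADC mice lie below both CTRL mice, and from P2rx7 to Hspa1a above. None of these genes passed edgeR's adjusted threshold.

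The cAMP and CREB response list had 16 of 27 members apart with Trpv1-ADC lower (59.3%) and 2 higher (7.41%), with a median log2 fold change of -0.54. Its members with the smallest p were Thbs1, Pde4b, Atf4 and Klf4. Pde4b, a phosphodiesterase that degrades cAMP, was at 547 and 739 CPM in CTRL and at 302 and 194 CPM in Trpv1-ADC mice (log2 fold change -1.41 ± 0.27, edgeR adjusted p = 0.0989). Thbs1, thrombospondin 1, was at 454 and 419 against 195 and 162 CPM (-1.33 ± 0.22, edgeR adjusted p = 0.0890). DESeq2 called both, at an adjusted p of 0.00822 each. Atf4, a stress-responsive factor of the CREB family, was at 389 and 345 against 184 and 188 CPM. Klf4, a transcription factor of monocytes and macrophages, was at 681 and 873 against 434 and 315 CPM. Values within each group were closer to each other than to the other group for all 4 genes.

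Immediate early genes, which are transcribed within minutes of a stimulus and also during tissue digestion, had 17 of 28 members apart with Trpv1-ADC lower (60.7%) and 1 higher (3.57%), with a median of -0.53. Dusp5, a phosphatase of MAP kinases, was at 362 and 441 against 189 and 179 CPM (edgeR adjusted p = 0.0969). Csrnp1, a nuclear protein, was at 287 and 272 against 149 and 91.2 CPM, and Zfp36, which destabilises cytokine mRNA, at 1453 and 1116 against 861 and 611 CPM. Over 11 choices of cells, 7 to 19 members lay apart with Trpv1-ADC lower, with 7 (25.0%) when other lineages were left out. Dusp1, Klf4 and Nr4a1 belong to both this list and the cAMP list, so the counts are not separate. Heat shock genes, a list that tracks handling, lay the other way, with 7 of 14 apart and higher (50%, against 23.9% of all genes) and 1 lower. Their median was 0.44, and 4 to 9 were higher over the same choices. Hspa1a was at 1896 and 2704 CPM in CTRL and at 4119 and 3578 CPM in Trpv1-ADC mice (edgeR adjusted p = 0.298). Genes of the cytosolic ribosome, which follow RNA quality, had 17 of 76 apart and higher (22.4%, near the 23.9% of all genes). They had 0 lower (against 19.0% of all genes), a median of 0.15, and 4 to 33 higher over these choices. The part of handling in the values of the immediate early, cAMP and NF-kB lists was not tested.

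Promoters are shown for members of these 3 lists that lay apart with Trpv1-ADC lower and hold 1 of 2 motifs in the 250 bases before their start. The motifs are the cAMP response element TGACGTCA, bound by CREB, and TGANTCA, bound by AP-1 factors such as Fos and Jun. Both were searched on both strands, and no letter can belong to both. These genes were chosen after their values had been seen. Each line is 60 bases from RefSeq, assembly GRCm38.p6, 5′ to 3′ on the gene's strand, with the motif in capitals.
Nfkbid, chr7:30422329-30422388, plus strand: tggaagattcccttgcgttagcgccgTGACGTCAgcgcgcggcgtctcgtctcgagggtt
Dusp1, chr17:26508582-26508641, minus strand: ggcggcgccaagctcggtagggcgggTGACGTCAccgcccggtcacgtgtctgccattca
Prkar1a, chr11:109650874-109650933, plus strand: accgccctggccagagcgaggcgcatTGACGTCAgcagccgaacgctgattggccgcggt
Tnfaip3, chr10:19015514-19015573, minus strand: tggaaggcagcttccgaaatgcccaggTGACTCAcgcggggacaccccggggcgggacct
Nfkbie, chr17:45555517-45555576, plus strand: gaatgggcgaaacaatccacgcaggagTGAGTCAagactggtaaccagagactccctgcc
Csrnp1, chr9:119983024-119983083, minus strand: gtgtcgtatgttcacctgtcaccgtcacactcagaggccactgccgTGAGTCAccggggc
Plaur, chr7:24462387-24462446, plus strand: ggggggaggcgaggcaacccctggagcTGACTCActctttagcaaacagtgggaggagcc
The cAMP response element lies 51 bases before the start of Nfkbid, 143 before that of Dusp1 and 49 before that of Prkar1a, counted from its first base. TGANTCA lies 136 bases before the start of Tnfaip3, 156 before that of Nfkbie and 69 before that of Plaur. For Csrnp1, 1 of 2 matches is shown, 14 bases before the start. Of 5603 tested genes with a promoter in the table, 185 (3.30%) held TGACGTCA and 324 (5.78%) held TGANTCA. Of the lower members that lay apart, 1 of 13 NF-kB genes, 2 of 13 cAMP genes and 1 of 15 immediate early genes held TGACGTCA, and 2, 1 and 1 held TGANTCA. Of all tested members of these lists, lower or not, 1 of 21, 2 of 18 and 3 of 24 held TGACGTCA. TGANTCA was held by 5, 1 and 1 of them, so some matches lay in members that were not lower. A match in these windows is a description and shows no binding.

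Nfkbid, an atypical IkB protein, was at 81.9 and 142 CPM in CTRL and at 57.5 and 39.1 CPM in Trpv1-ADC mice. Nfkbie, an IkB inhibitor, was at 137 and 172 against 92.6 and 91.2 CPM. Dusp1, a MAP kinase phosphatase, was at 1887 and 1562 against 1449 and 652 CPM, where Trpv1-ADC 1 came close to CTRL 2. Prkar1a, the regulatory subunit of the cAMP-dependent kinase, was at 157 and 176 against 119 and 98.7 CPM. Plaur, the urokinase receptor, was at 328 and 352 against 157 and 289 CPM.

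The interleukin 1, inflammasome and pattern recognition list had 13 of 27 members apart with Trpv1-ADC lower (48.1%) and 6 higher (22.2%), with a median of -0.46. Casp4, the inflammatory caspase that senses lipopolysaccharide, was at 323 and 312 CPM in CTRL and at 157 and 117 CPM in Trpv1-ADC mice (log2 fold change -1.24 ± 0.23, edgeR adjusted p = 0.0945). Nlrp3, the inflammasome sensor, was at 317 and 413 against 188 and 140 CPM (edgeR adjusted p = 0.112). Tlr2, a receptor for bacterial lipoproteins, was at 129 and 176 against 73.0 and 65.1 CPM, and Clec7a, the beta-glucan receptor dectin-1, at 347 and 417 against 230 and 203 CPM. Il1b was at 1275 and 1444 against 923 and 657 CPM (-0.83 ± 0.23, edgeR adjusted p = 0.223). All 5 genes lay apart, whereas Tlr4, the lipopolysaccharide receptor, was at 43.5 and 32.0 against 51.9 and 40.9 CPM and overlapped. Tlr4 was named after its values had been seen.

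Chemokine ligands had 9 of 18 members apart with Trpv1-ADC lower and 1 higher (5.56%), with a median of -0.30. With cells of other lineages left out (plasma cell genes not counted), 4 were lower and 4 higher (22.2% each, against 18.9% and 20.7% of all genes). Ccl2, which attracts monocytes, was at 495 and 369 CPM in CTRL and at 208 and 235 CPM in Trpv1-ADC mice (log2 fold change -1.01 ± 0.22, edgeR adjusted p = 0.121). Ccl7, a related monocyte chemokine, was at 447 and 222 against 108 and 40.9 CPM, and Ccl4 at 591 and 575 against 306 and 348 CPM. Cxcl2, which attracts neutrophils, was at 1975 and 1915 against 1348 and 892 CPM. The 2 mice of each group lay far apart for Ccl7 and close together for Ccl4. Among other cytokines and prostanoid enzymes, 5 of 19 members lay apart with Trpv1-ADC lower (26.3%) and 1 higher. They included Il10, at 157 and 218 against 126 and 39.1 CPM (edgeR adjusted p = 0.430), and Hpgds, a prostaglandin D synthase, at 132 and 94.1 against 63.1 and 55.8 CPM. Ptgs2, the inducible cyclooxygenase, was at 159 and 144 against 115 and 44.7 CPM.

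The interleukin 10 and TGF-beta response list had 10 of 22 members apart with Trpv1-ADC lower (45.5%) and 0 higher, with a median of -0.20. Etv3, a repressor induced by interleukin 10, was at 334 and 324 against 112 and 153 CPM (log2 fold change -1.36 ± 0.23, edgeR adjusted p = 0.0890, DESeq2 adjusted p = 0.0158). Skil, an inhibitor of TGF-beta signalling, was at 239 and 270 against 118 and 153 CPM.

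Genes of antigen presentation and co-stimulation had 11 of 19 members apart with Trpv1-ADC lower (57.9%) and 2 higher (10.5%), with a median of -0.23, and 7 lower (36.8%) with cells thinned to 2000 UMIs. Cd83, which stabilises class II at the surface, was at 641 and 477 CPM in CTRL and at 257 and 235 CPM in Trpv1-ADC mice (-1.23 ± 0.22, edgeR adjusted p = 0.0890, DESeq2 adjusted p = 0.0128). The co-stimulatory ligand Cd80 was at 146 and 122 against 73.0 and 44.7 CPM, and Cd86 at 618 and 515 against 411 and 251 CPM. Ciita, the master activator of class II transcription, lay the other way, at 102 and 116 against 206 and 184 CPM (edgeR adjusted p = 0.236). The class II chain gene H2-Ab1 overlapped between the groups, at 4976 and 6049 against 5142 and 4747 CPM.

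**Figure D4:**
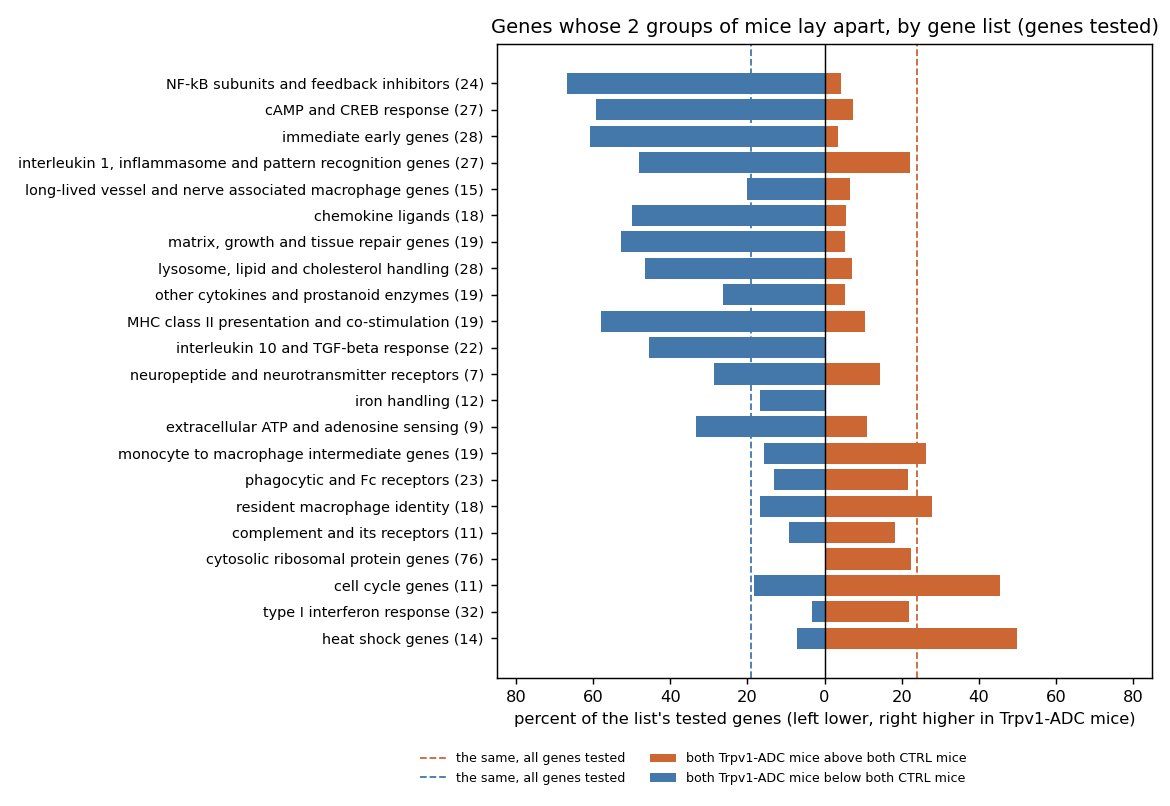
Percent of tested genes in each of 22 lists whose groups lay apart, lower in Trpv1-ADC mice to the left and higher to the right, ordered by median log2 fold change. Dashed lines mark all genes tested, 19.0% lower and 23.9% higher, and the NF-kB list has 66.7% lower.

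Receptors for neuropeptides and neurotransmitters were sparse: of 36 in the list, 7 were high enough to be tested. Ramp1, the co-receptor for the nociceptor peptide CGRP, was at 51.2 and 46.1 CPM in CTRL and at 37.9 and 50.3 CPM in Trpv1-ADC mice and overlapped. Its partner Calcrl was at 19.2 and 14.02 against 7.02 and 26.1 CPM and also overlapped. Ramp3, which pairs with Calcrl in an adrenomedullin receptor, was at 47.4 and 26.0 against 16.8 and 18.6 CPM (log2 fold change -1.13 ± 0.42, edgeR adjusted p = 0.350).

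Among sensors of extracellular ATP and adenosine, P2rx7 came closest to the threshold after S100a9. This ATP-gated channel, which triggers inflammasome activation, was at 76.8 and 86.1 CPM in CTRL and at 255 and 363 CPM in Trpv1-ADC mice. Its log2 fold change was 1.88 ± 0.26 (SE, edgeR adjusted p = 0.0547, DESeq2 adjusted p = 0.000552). It had a UMI in 32 of 98, 16 of 58, 44 of 84 and 30 of 47 cells, and the highest single cell held 11.7% to 30.2% of a mouse's UMIs. The adenosine receptor genes lay the other way, Adora2a at 39.7 and 42.1 against 12.6 and 16.8 CPM and Adora2b at 26.9 and 30.05 against 4.21 and 11.2 CPM. Entpd1, the ectoenzyme CD39 that degrades ATP, was at 229 and 236 against 147 and 184 CPM. Of the 9 members tested, 1 lay apart and higher (11.1%) and 3 lower (33.3%).

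Genes of maturing monocytes did not lie in a single direction, with 5 of 19 apart and higher (26.3%) and 3 lower (15.8%). Retnla was at 2320 and 1256 CPM in CTRL and at 3434 and 4895 CPM in Trpv1-ADC mice (log2 fold change 1.18 ± 0.29, edgeR adjusted p = 0.175). Lyz1, a lysozyme gene, was at 497 and 529 against 1115 and 1111 CPM (1.08 ± 0.21, edgeR adjusted p = 0.0969, DESeq2 adjusted p = 0.00934). Levels were also read within the cells with a Retnla UMI, which numbered 17 and 8 in CTRL and 14 and 7 in Trpv1-ADC mice. There Retnla was at 10091 and 7935 against 17186 and 21172 CPM and Lyz1 at 1252 and 2519 against 5335 and 4717 CPM. In cells without a Retnla UMI, Lyz1 lay the other way, at 271 and 155 against 61.4 and 26.6 CPM. A single cell held 24.3% to 38.6% of a mouse's Retnla UMIs.

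Resident macrophage identity genes other than those of the gate had a median of 0.00, with 5 of 18 apart and higher and 3 lower. Lyz2, the main macrophage lysozyme, was at 4195 and 3704 against 5107 and 6463 CPM. Cx3cr1 (230 and 224 against 251 and 221 CPM) overlapped. Complement genes had 2 of 11 higher and 1 lower, and phagocytic and Fc receptors 5 of 23 higher and 3 lower. Both shares lay near those of all genes. Genes of long-lived macrophages had 1 of 15 higher and 3 lower. Iron handling genes had 0 of 12 higher and 2 lower.

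Lysosome, lipid and cholesterol genes had 13 of 28 members apart with Trpv1-ADC lower (46.4%) and 2 higher, with a median of -0.24. With cells of other lineages left out 5 were lower (17.9%, against 18.9% of all genes), and 8 (28.6%) either without Retnla-positive cells or without the S100a8 and S100a9 cells. Pparg, a lipid-sensing nuclear receptor, was at 56.3 and 82.1 against 29.5 and 26.1 CPM, and Abca1, which exports cholesterol, at 362 and 252 against 213 and 147 CPM. Matrix and repair genes had 10 of 19 lower (52.6%) and 1 higher, and 6 lower with cells thinned to 2000 UMIs. Among them Plau, urokinase, was at 38.4 and 78.1 against 19.6 and 11.2 CPM. Mmp12, macrophage elastase, was at 136 and 90.1 against 19.6 and 0 CPM. Type I interferon response genes had 7 of 32 members apart and higher (21.9%, near the 23.9% of all genes). They had 1 lower (3.13%, against 19.0% of all genes) and a median of 0.28, and 6 to 11 were higher over 11 choices of cells. Irf7, the factor that amplifies the response, was at 19.2 and 42.1 against 53.3 and 130 CPM (edgeR adjusted p = 0.321). In monocytes 34.3% of the interferon genes tested there were apart and higher (against 19.8% of all genes). In type 2 dendritic cells 51.7% were (against 15.4%). In macrophages, cell cycle genes had 5 of 11 higher (45.5%, against 23.9% of all genes) and 2 lower (18.2%, against 19.0%). However, 0 were higher among cells without a Retnla UMI, 2 with the stricter tag ratio and 8 with other lineages left out. The replication genes Mcm2 and Mcm5 were at 7.68 and 4.01 against 18.2 and 22.3 CPM and at 12.8 and 6.01 against 22.5 and 26.1 CPM. Cenpa, a centromere histone, and Pcna, the replication clamp, lay the other way, at 39.7 and 62.1 against 19.6 and 20.5 CPM and at 166 and 246 against 89.8 and 128 CPM.

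The remaining genes with the smallest p outside the lists were Dus2, a tRNA-modifying enzyme gene, at 20.5 and 22.0 against 119 and 94.9 CPM (edgeR adjusted p = 0.0547), and Polr2l, an RNA polymerase II subunit gene, at 171 and 234 against 535 and 605 CPM (0.0890). For Dus2 a single cell held 44.7% and 66.7% of the UMIs of the Trpv1-ADC mice. Herpud1, a gene of the endoplasmic reticulum stress response, was at 365 and 379 against 154 and 136 CPM (edgeR adjusted p = 0.0820) and Fam129b at 136 and 162 against 53.3 and 52.1 CPM (0.0890).

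The NF-kB genes were also read in ranges of cells. With a Retnla UMI, Nfkb1 was at 896 and 1215 CPM in CTRL and at 126 and 250 CPM in Trpv1-ADC mice, and without one at 666 and 785 against 317 and 429 CPM. In cells with a UMI of the long-lived genes Cd163, Lyve1, Folr2, Timd4 or Cd209f, Nfkb1 was at 696 and 962 against 186 and 222 CPM, and in cells without one at 728 and 824 against 330 and 468 CPM. Rel and Pim1 also had both Trpv1-ADC mice below both CTRL mice in each of these 4 ranges. The cells with a long-lived gene numbered 29 and 13 in CTRL and 29 and 13 in Trpv1-ADC mice and were not fitted, since 2 mice had fewer than 20.

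Among the 203 cells without a long-lived gene, 5749 genes were tested and 8 passed (0.139%), 4 higher and 4 lower. The genes that rose were S100a9, Dus2 and 2 predicted genes, and those that fell were Ccl8, Plxdc1, Thbs1 and Lmna. Ccl8, a monocyte chemokine, fell from 183 and 155 to 26.1 and 27.7 CPM (log2 fold change -2.68 ± 0.30, edgeR adjusted p = 0.0199). Thbs1 fell from 566 and 512 to 178 and 141 CPM (-1.78 ± 0.22, edgeR adjusted p = 0.0254). Lmna, which encodes lamin A, fell from 540 and 436 to 174 and 155 CPM (-1.60 ± 0.22, edgeR adjusted p = 0.0357). Plxdc1, a membrane receptor gene, fell from 148 and 310 to 13.045 and 11.1 CPM (-4.22 ± 0.50, edgeR adjusted p = 0.0246). Over all macrophages none of the 4 genes that fell here passed. There the log2 fold change was -1.69 for Plxdc1 (edgeR adjusted p = 0.663), -2.43 for Ccl8 (0.361) and -1.10 for Lmna (0.102). In cells with a long-lived gene Ccl8 was higher in level, at 2621 and 2066 against 554 and 90.9 CPM. In this range the calls numbered 23 when CTRL 1 was left out, 26 for CTRL 2, 276 for Trpv1-ADC 1 and 150 for Trpv1-ADC 2.

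Whether the difference between groups was itself different in macrophages was tested as an interaction in edgeR against 301 monocytes and against 219 type 2 dendritic cells of the same mice. Against monocytes 5 of 7622 genes passed (0.0656%), and against type 2 dendritic cells 5 of 7977 (0.0627%). Leaving out CTRL 1, CTRL 2, Trpv1-ADC 1 or Trpv1-ADC 2 gave 22, 45, 80 and 23 genes against monocytes and 37, 35, 19 and 5 against dendritic cells. Mt1, a metallothionein that binds zinc, was at 1020 and 1306 CPM in CTRL and at 849 and 456 CPM in Trpv1-ADC macrophages. In monocytes it was at 391 and 616 against 1493 and 694 CPM, and the difference between the 2 changes was -2.03 ± 0.24 on the log2 scale (edgeR adjusted p = 0.00222). Mmp19, a matrix protease, was at 152 and 196 against 123 and 44.7 CPM in macrophages and at 114 and 82.6 against 358 and 97.6 CPM in monocytes (-2.27 ± 0.37, edgeR adjusted p = 0.0305). S100a9 and S100a8 differed by 5.71 (edgeR adjusted p = 0.000501) and 4.25 (0.0304), and Folr2 by -3.52 (0.00308). S100a9 came from 5, 3, 3 and 2 monocytes of CTRL 1, CTRL 2, Trpv1-ADC 1 and Trpv1-ADC 2. A single monocyte held 50.9%, 69.2%, 78.2% and 99.2% of its UMIs in that order. S100a8 came from 5, 5, 5 and 8 monocytes, and 1 cell held 56.9% to 90.1% of a mouse's UMIs. In monocytes Folr2 came from 2 cells in each Trpv1-ADC mouse, and 1 cell held 77.0% and 54.4% of its UMIs there.

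Against type 2 dendritic cells, Retnla had an interaction of 7.65 ± 0.35 in log2 units (edgeR adjusted p = 1.35e-08). It was at 1114 and 589 CPM in CTRL and at 9.61 and 9.15 CPM in Trpv1-ADC dendritic cells, from 8, 8, 3 and 5 cells. A single cell held 50.4% and 77.4% of the UMIs of the CTRL mice. Fn1 differed by 2.53 ± 0.34 (edgeR adjusted p = 0.00508), being at 1051 and 771 against 971 and 800 CPM in macrophages and at 1069 and 486 against 156 and 87.8 CPM in dendritic cells. A single dendritic cell held 23.1% and 52.0% of the Fn1 UMIs of the CTRL mice and 52.3% and 89.6% of those of the Trpv1-ADC mice. Lpl, lipoprotein lipase, differed by 4.35 (edgeR adjusted p = 0.00508) and Fcrls, an Fc receptor-like gene, by 4.42 (0.0222). In the dendritic cells of CTRL 1, CTRL 2, Trpv1-ADC 1 and Trpv1-ADC 2, Lpl came from 12, 5, 0 and 2 cells. Fcrls came from 8, 2, 2 and 0.

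The NF-kB list had a median interaction of -0.53 against monocytes and of -0.67 against type 2 dendritic cells. In each, 9 of 24 members had an unadjusted edgeR p under 0.05, against 394 of 7622 and 522 of 7977 genes tested. No NF-kB member passed after adjustment. In monocytes 10 of the 24 lay apart with Trpv1-ADC lower (41.7%, against 23.3% of all genes tested there), and in type 2 dendritic cells 2 of 23 (8.70%, against 18.8%). Immediate early genes had a median interaction of -0.69 against monocytes and -0.66 against dendritic cells, with 12 of 29 and 15 of 30 members under an unadjusted p of 0.05. Within monocytes 8 of 28 lay apart with Trpv1-ADC higher (28.6%, against 19.8% of all genes) and 5 lower (17.9%). Within type 2 dendritic cells 12 of 29 lay apart with Trpv1-ADC higher (41.4%, against 15.4%) and 3 lower (10.3%). Heat shock genes were apart and higher for 12 of 14 members in monocytes (85.7%, against 19.8% of all genes tested there). In type 2 dendritic cells 11 of 14 were (78.6%, against 15.4%).

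**Figure D5:**
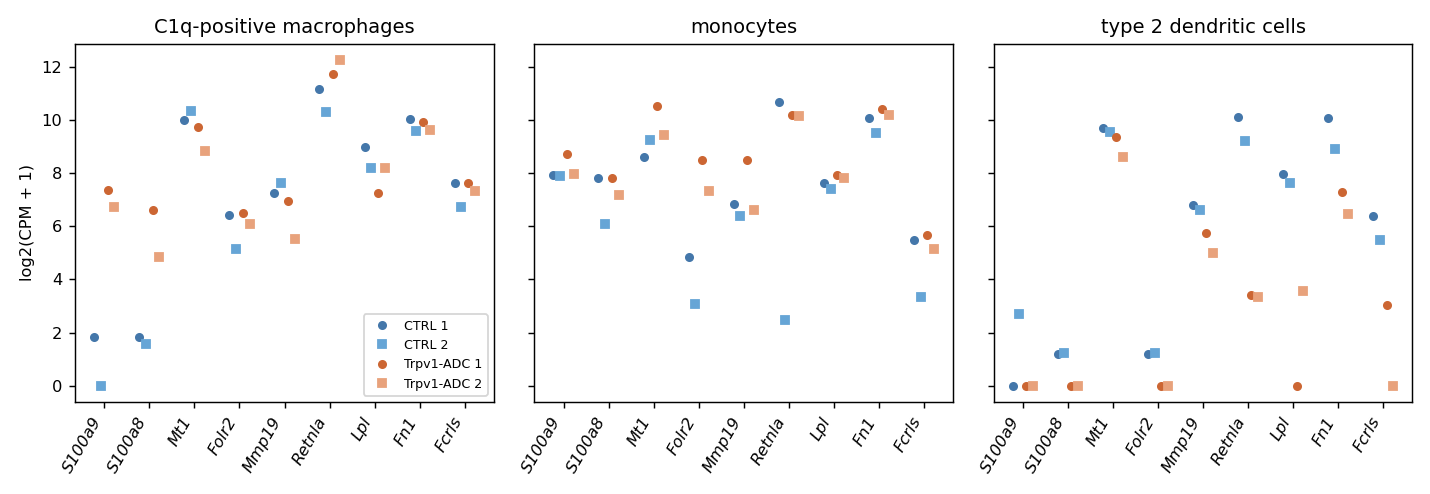
Level of 9 genes, as log2(CPM + 1), in the macrophages, monocytes and type 2 dendritic cells of each mouse, 1 point per mouse. Retnla is at 9.61 and 9.15 CPM in dendritic cells of Trpv1-ADC mice and at 3434 and 4895 CPM in their macrophages, and S100a9 is low in macrophages of CTRL mice.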

How the data were processed

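Sorted CD45+ cecal cells of 4 mice, 2 per group, were measured in 1 droplet run. The authors deposited raw UMI counts per gene and barcode (55487 genes, 23063 barcodes, 174231251 UMIs) and raw counts per hashtag and barcode, found by inspection to be whole numbers. Per the submitters' processing notes, Cell Ranger, Seurat and build mm10 were used. Versions, annotation, and whether hashtag counts are UMIs or reads are not given in the sources used here. The deposited hashtag counts hold 15 tags, of which the 11 that the labels do not name were not used. CT010467.1 took 6.35% of UMIs.

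Barcodes with at least 500 UMIs and at most 10% mitochondrial UMIs (22734) were assigned to the top of the 4 named tags if it had at least 10 counts and 3 times the next. Doublets were limited by this rule and the excluded lineage genes. Scrublet (scanpy 1.11.5, expected rate 0.1, score threshold 0.197) marked 47.5% of tag doublets and 7 of 287 macrophages, which stayed in. Monocytes had a Csf1r UMI, at least 2 UMIs of Ly6c2, Vcan, Plac8 and F10, at most 1 C1q UMI, and no Flt3 or Zbtb46. Type 2 dendritic cells had a Flt3 or Zbtb46 UMI, at least 5 of H2-Ab1, at most 1 C1q UMI, and no Siglech or Ms4a1. Both also lacked the excluded lineage genes.

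The mouse was the replicate. Counts were summed per mouse (499223 to 781316 UMIs, which set the precision) and tested with edgeR 4.0.16 (R 4.3.3; TMM, filterByExpr, robust quasi-likelihood fit, two-sided, Benjamini-Hochberg at 0.05), with no covariate. Interactions had the mouse as a block. A log2 fold change above 0 means higher in Trpv1-ADC mice, and values are CPM of the summed counts. DESeq2 1.42.0 and other choices of filter, scaling and cells were alternatives. Shares were tested by exact permutation of mice (scipy 1.17.1). The fit was first tested on simulated data.

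The members, gates, gene lists and tests were chosen with earlier results of these data known. Named genes were those past the threshold and apart, up to 10 each way (with fewer than 10, the 10 smallest p), list members past the threshold, up to 4 members per list by p, gate and subset genes, and the 5 smallest adjusted p per direction of an interaction. Predicted genes were counted, not named. Some other named genes are stated as chosen after their values were seen. Genes in the check of the label, such as Apoe and H2-Ab1, were named outside these rules. The planned motif search in genes that fell had no such gene, so the lists' lower members were used. A few genes that the rule gave are left out of the text.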

Additional observations from a re-analysis of the deposited data

Results flagged for a closer look

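In 10 genes the difference between Trpv1-ADC and CTRL mice was itself different between macrophages and another population, by the interaction test of edgeR. Values are interactions on the log2 scale, positive where macrophages of Trpv1-ADC mice stood relatively higher. Against monocytes these were S100a9 (5.71), S100a8 (4.25), Mt1 (-2.03), Folr2 (-3.52) and Mmp19 (-2.27). Against type 2 dendritic cells they were Retnla (7.65), Lpl (4.35), Fn1 (2.53), Fcrls (4.42) and Rsad1 (-7.56).

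Several rest on few cells. S100a9 came from 2, 0, 6 and 2 macrophages of CTRL 1, CTRL 2, Trpv1-ADC 1 and Trpv1-ADC 2, and from 5, 3, 3 and 2 monocytes. Rsad1, named here because it passed, was at 204 CPM in the dendritic cells of Trpv1-ADC 1 against 5.49 to 7.73 CPM in the other mice, and 1 cell held all 85 of its UMIs there. Lpl was at 247 and 200 CPM in dendritic cells of CTRL mice and at 0 and 10.97 CPM in those of Trpv1-ADC mice. Mt1 in monocytes of Trpv1-ADC 1 had 43.8% of its UMIs in 1 cell, and Mmp19 had 52.3%.

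The 11 hashtags that the labels do not name held 234 counts in macrophages, which is 0.0988% of the tag counts there. They were spread over 124 of 287 cells, with at most 8 counts in a cell.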

How the results depend on the processing

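Main calls in macrophages numbered 1. DESeq2 called 24 genes, upper quartile factors 3, no low count filter 236, at least 3 C1q UMIs 4, a top tag of 10 times the next 8, no Scrublet doublets 31 and at most 5% mitochondrial UMIs 4. Alternatives chosen after seeing the data called 2 (cells thinned to 2000 UMIs), 4 (no Retnla UMI), 3 (other lineages left out, plasma cell genes not counted), 12 (non-immune markers left out) and 53 (S100a8 and S100a9 cells left out), and leaving out 1 mouse 83 to 198. No robust fit, cells drawn down to 47 per mouse, at least 10 C1q UMIs and all other lineages left out (35 cells, 929 genes tested) kept a count of 1. The difference in share was 0.0104 points with other lineages left out, 4.86 with Csf1r-positive cells as the denominator and -0.648 to 0.185 with 1 mouse left out. Interactions with monocytes numbered 3 with at least 3 marker UMIs, 55 without the filter and 22 to 80 with 1 mouse left out, and those with type 2 dendritic cells 71 without the filter and 5 to 37 with 1 mouse left out. Cells without a long-lived gene gave 29 calls when the cut was 2 UMIs and 23 to 276 with 1 mouse left out. With 1 mouse left out, the lone mouse is assumed to vary like the other group. Of 1788 values of 90 named genes, 1450 kept their side of the threshold and sign, 299 came to pass it and 39 uncalled values changed sign. These count only values still tested: S100a9, the single call, was not tested in 5 choices of cells. Among these were the one without the S100a8 and S100a9 cells and both with other lineages left out. Both of the latter kept no cell with a UMI of S100a8 or S100a9. The causes were not tested.

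With the mouse number as a replicate block, edgeR called 288 genes, 57 higher and 231 lower. The numbers only name the mice, and deviations of same-numbered mice correlated at 0.109 over 2 pairs, so this block was not used. The 287 cells in 4 mice limit the precision of every value.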
